A study of Mus musculus with 4 samples.

Results

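The genes of the proteasome were followed in ribosome footprints of whole mouse testis at day 10. Members were the symbols of the deposited table made of Psma, Psmb, Psmc, Psmd, Psme, Psmf or Psmg and a number, without pseudogenes, which gave 47 of 14984 genes. Control testes were compared with testes from Eif5 conditional knockout (Eif5 cKO) mice, in which an Eif5 fl/fl allele was combined with a Stra8-Cre transgene so that the gene was deleted in germ cells. Each group had 2 samples, named by the titles as controls or knockouts (cKO). The labels do not give the controls' own alleles, nor whether they carried Cre. Whether replicates stem from different animals is not said either, so p-values speak of the spread among these libraries, possibly a technical one. In limma that spread was largely pooled over genes, with 2 residual degrees of freedom per gene beside 37 prior ones estimated from all genes tested.

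The proteasome degrades proteins that carry ubiquitin chains. Its barrel-shaped core is built from alpha rings, which form the gate, and beta rings, which hold the proteolytic sites; a regulatory particle with an ATPase base and a lid recognises, unfolds and feeds in the substrate. Some subunits have tissue forms: Psma8 takes the place of Psma7 in meiotic and later germ cells, and Psmb8, Psmb9 and Psmb10 take the place of the catalytic subunits Psmb5, Psmb6 and Psmb7 in immune cells and under interferon. Other members open the core from its ends (activators), block it (an inhibitor) or help to assemble it.

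The members comprised 8 alpha genes including Psma8, 10 beta genes including the 3 immune forms, 6 base ATPases, 3 base subunits without ATPase activity, 8 lid subunits, 4 activators, 1 inhibitor and 7 assembly chaperones. Psmb11, the thymic catalytic form, was not analysed here. Values are reads divided by a size factor per library, and 1 read was worth between 0.816 and 1.15. Pairs of values are given in the order of replicates 1 and 2. Libraries held 2225964 to 2934609 reads. Coding lengths were not used here, so levels are compared between samples and not between genes.

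Tissue markers were present in every library. The summed Sertoli markers took 1.83% and 2.44% of reads in the controls and 3.35% and 2.38% in the knockouts, and the 7 Leydig markers 0.0661% and 0.0792% against 0.114% and 0.104%. Most of the Sertoli sum came from Clu, with 35568 and 52646 in the controls and 70687 and 48370 in the knockouts. The summed Sertoli values were 43908 and 62340 against 87300 and 59449. The groups of Clu overlapped. Of the 10 Sertoli markers 9 had a positive sign and 1 a negative one, with 0 called by limma. Both knockout values lay above both controls for 5 of the 10, where 20% of all genes did so. The 15 meiotic prophase markers took 0.204% and 0.185% in the controls and 0.0582% and 0.0724% in the knockouts, with Spo11 at 0 in both knockout libraries and Meiob at 0 in Eif5 cKO replicate 2. Eif5 had values of 365 and 304 in the controls and 173 and 266 in the knockouts. Both knockout values lay below both controls, with a log2 fold change of -0.63 (SE 0.25) that did not pass the threshold (limma, Benjamini-Hochberg adjusted p = 0.319).

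No proteasome gene passed the test between Eif5 cKO and control. All 47 members had enough reads to be tested, and limma with Benjamini-Hochberg adjustment called 0 of them lower and 0 higher, where a call is an adjusted p under 0.05. Over all 12095 genes tested, 0.604% were called lower and 0.0744% higher, so 0 of 47 is near the background. At an unadjusted p under 0.05 there were 2 members, Psmg2 and Psmb2, against 10.6% of all genes. edgeR and limma-voom also called 0 members with 2 at an unadjusted p under 0.05, and DESeq2 called 0 with 0.

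The limma intervals show how large a difference could have been missed, given a variance drawn mostly from all genes tested. Their widths reflect a gene's own replicate spread only in small part. Psma6, at 324 and 642 in the knockouts, had an SE of 0.25, and Psma7, at 815 and 818, had 0.22. For 36 of the 47 members (76.6%) the whole 95% interval of the log2 fold change lay between -1 and 1, that is within 2-fold in either direction. This was so for 47.1% of all genes tested. For the 31 common subunits of core, base and lid it was so for 26 (83.9%). Among the 8131 genes whose mean value lay in the wide range of these subunits (40.2 to 1022), it was so for 65.8%. The 11 members with wider intervals were Psma5, Psmb2, Psmb3, Psmb5, all 3 immune forms, Psmd11, Psme2, Psmg2 and Psmg3.

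**Figure D1:**
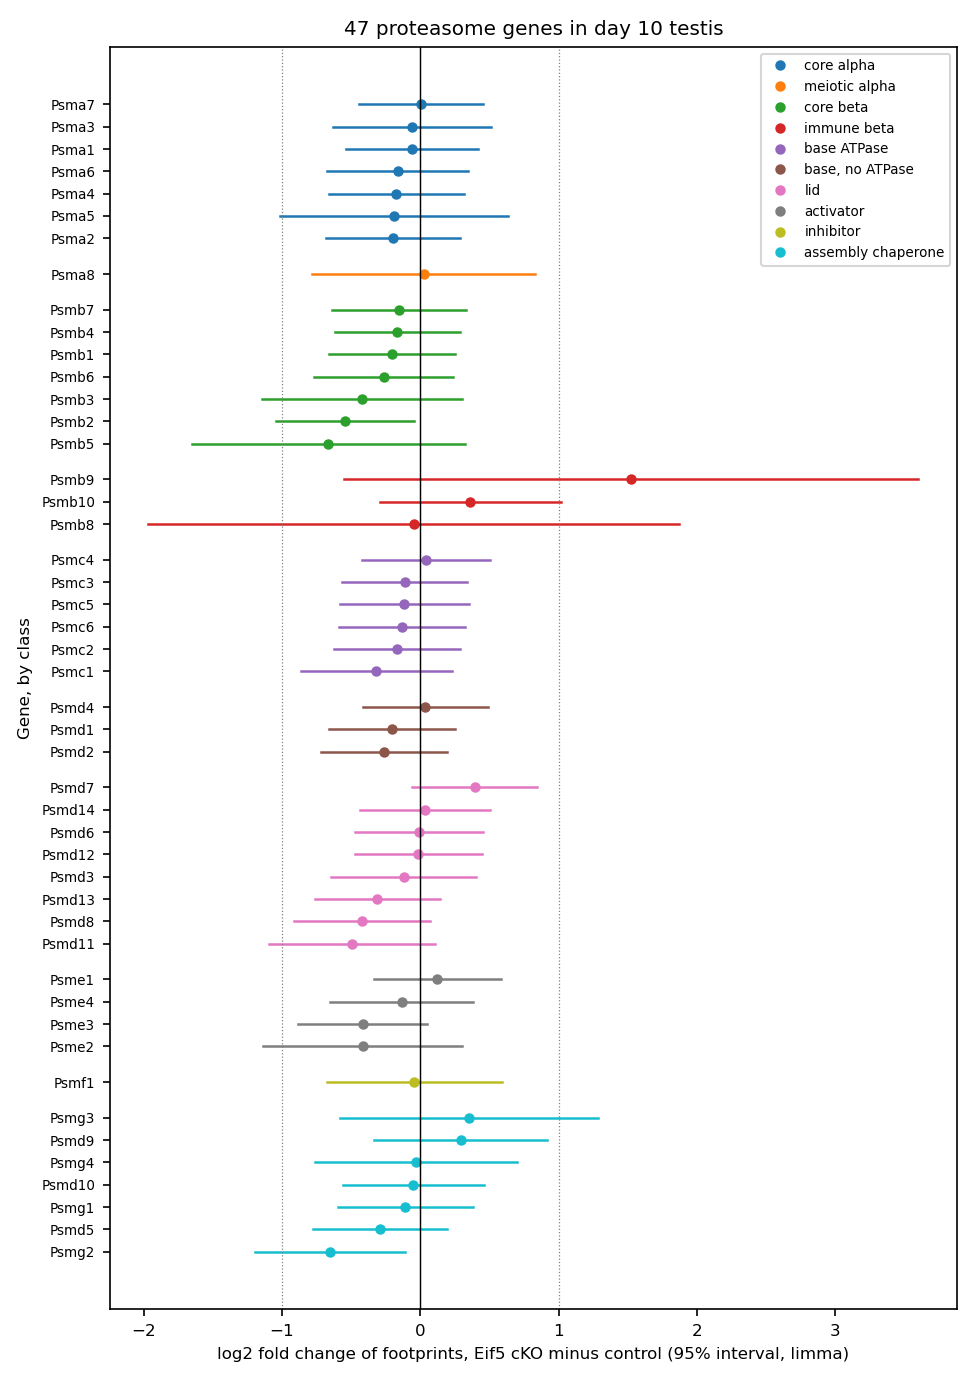
Log2 fold change of ribosome footprints (x axis, Eif5 cKO minus control, 2 samples each) for each of the 47 proteasome genes (y axis, grouped by class), with the limma estimate as a point and its 95% interval as a bar; dotted lines mark 2-fold. The interval of 45 genes crosses 0, those of Psmb2 and Psmg2 do not, and the widest belong to Psmb9 and Psmb8.

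The 31 common subunits of core, base and lid had a median log2 fold change of -0.17, beside 0.003 for all genes tested. Of them 26 had a negative sign (83.9%), against 49.7% of all genes, and 5 a positive sign. Both knockout values lay below both controls for 11 of the 31, where 20.9% of all genes did so, and above both for 2, where 20% of all genes did so. The naming pattern leaves out the subunits Adrm1 and Shfm1, which were listed with the cofactors. Their estimates were 0.28 (SE 0.48) and 0.54 (SE 0.23), and for each both knockout values lay above both controls. The 31 genes were read in the same 4 libraries and are not independent of each other, so these counts are a description. Summed over the 31 genes, the share of reads was 0.626% and 0.593% in the controls and 0.537% and 0.554% in the knockouts. The knockout shares were both below the control shares. Relative to the median of all genes the shift was -0.17 as deposited and -0.10 without control replicate 1. With the libraries scaled on the Sertoli markers the median of all genes was -0.45, all 31 subunits were negative, and the relative shift was -0.18. This scaling rested mostly on Clu, whose groups overlapped. Other marker lists moved with the shift or against it in the same libraries. The 10 spermatogonial markers together took 0.230% and 0.192% of reads in the controls and 0.122% and 0.137% in the knockouts. Of them 8 had a negative sign, and both knockout values lay below both controls for 5 of the 10. Gfra1 (0.04) and Nanos3 (0.26) were positive, and Zbtb16, Sohlh1 and Sall4 were negative with overlapping groups. Stra8 and Dazl, germ cell genes that act at or before meiotic entry, fell by 1.53 and 1.14 on the log2 scale (limma adjusted p = 1.2e-04 and 0.0100). Neither passed without control replicate 1 (limma adjusted p = 0.103 and 0.439), and Dazl did not pass without control replicate 2 (0.0630) or Eif5 cKO replicate 1 (0.312), or with scaling on the Sertoli markers (0.0617). The 5 peritubular myoid markers took 0.244% and 0.238% against 0.222% and 0.186%, all 5 with a negative sign and with overlapping groups. No marker of these lists was at 0 in any library. The summed Leydig markers were higher in both knockouts, with 7 of 7 positive. The part of cell composition in the shift was not tested.

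**Figure D2:**
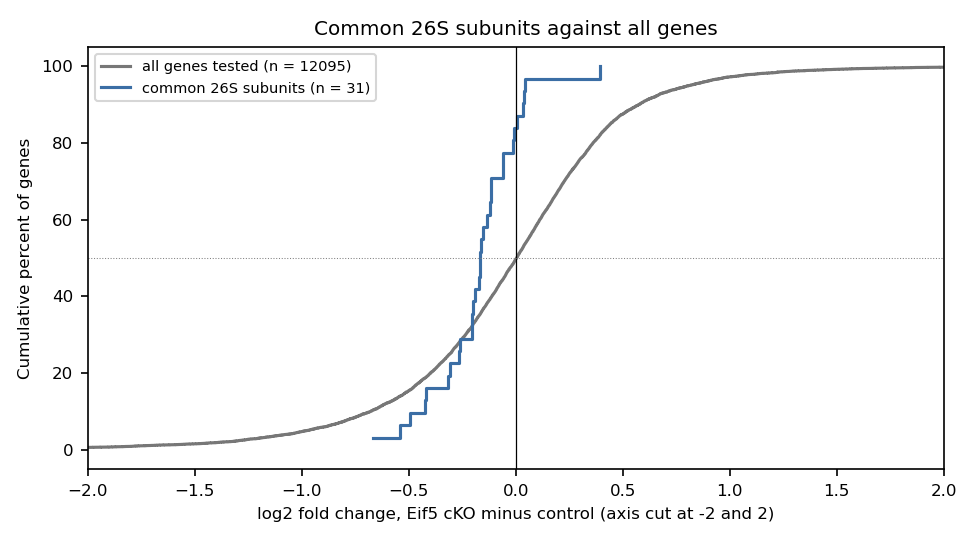
Cumulative percent of genes (y axis) by log2 fold change of footprints, Eif5 cKO minus control (x axis, drawn from -2 to 2), for the 31 common proteasome subunits and for all 12095 genes tested. The curve of the subunits reaches 83.9% at a log2 fold change of 0, where that of all genes is at 49.7%.

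In the alpha ring, the estimates of the 7 common subunits stayed between -0.20 and 0.003. Psma7, the subunit that Psma8 replaces, had 794 and 836 in the controls and 815 and 818 in the knockouts. Its groups overlapped and its means were 815 ± 29.4 and 816 ± 2.63 (SD, n = 2 each), with a 95% interval of the log2 fold change from -0.45 to 0.45. Psma2, an alpha ring subunit with the lowest estimate of the class (-0.20, SE 0.24), had 283 and 386 in the controls and 290 and 286 in the knockouts. The knockout values again lay inside the control range. Psma6, another ring subunit, differed most between the knockouts in this class, at 324 and 642 in the knockout libraries against 472 and 553 in control.

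All 7 common beta subunits had a negative estimate, from -0.67 to -0.15, and none passed the test. Psmb2, a beta ring subunit without a proteolytic site of its own, had 477 and 398 in the controls and 229 and 388 in the knockouts. Both knockout values were below both controls, the second by little, and the log2 fold change was -0.54 (SE 0.25; limma adjusted p = 0.414). Among the catalytic subunits, Psmb5, which carries the chymotrypsin-like site, had 36.7 and 58.5 in the controls and 17.0 and 48.4 in the knockouts. These values came from 45, 51, 15 and 54 reads, and its log2 fold change of -0.67 (SE 0.49) was 0.06 without Eif5 cKO replicate 1. Psmb6, with the caspase-like site, had 335 and 270 against 207 and 302. Psmb7, with the trypsin-like site, had 930 and 1205 against 1200 and 754. In all 3 catalytic genes the groups overlapped.

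The 6 ATPases of the base, which unfold the substrate, had estimates from -0.32 to 0.04. Psmc1 was lowest, with 193 and 181 in the controls and 126 and 179 in the knockouts, and Psmc4 highest, with 512 and 590 against 654 and 490. Psmc1 values did not overlap between groups but differed by 1.42-fold between the knockout libraries; Psmc4 values overlapped. Of the other base subunits, Psmd2, a large scaffold that docks ubiquitin carriers, had 845 and 797 in the controls and 767 and 613 in the knockouts (log2 fold change -0.26, SE 0.22). Psmd4, a receptor for ubiquitin chains, had 627 and 626 against 629 and 656 (0.04, SE 0.22). Neither passed, although the groups of neither gene overlapped.

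The lid spread furthest among the common classes, with 6 negative and 2 positive estimates. Psmd11, a scaffold subunit of the lid, had 158 and 129 in the controls and 81.8 and 124 in the knockouts (-0.50, SE 0.30; limma adjusted p = 0.583). Psmd7, the partner of the deubiquitinating subunit Psmd14, had 552 and 530 in the controls and 677 and 747 in the knockouts (0.39, SE 0.22; limma adjusted p = 0.560). For both genes the groups did not overlap, in opposite directions. Psmd14 itself, which removes ubiquitin chains from the substrate, had 326 and 374 against 356 and 359. Its knockout values lay between the controls.

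Psma8, the meiotic alpha subunit (chromosome 18, 14706135 to 14762301, GRCm38), did not differ detectably between the groups, in testes in which meiotic genes fell. It had 58.8 and 42.5 in the controls and 44.3 and 58.3 in the knockouts, from 72, 37, 39 and 65 reads. The higher and the lower value of each group nearly coincided, with means of 50.6 ± 11.5 and 51.3 ± 9.91 (SD, n = 2 each). The log2 fold change was 0.02 (SE 0.40), and its 95% interval ran from -0.78 to 0.83 (limma adjusted p = 0.991). A moderate difference in either direction is thus within the interval.

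Of 13 tested meiotic prophase markers, 10 fell (limma, adjusted p under 0.05, against 0.604% of all genes), and the median log2 fold change was -1.57. The list was chosen with earlier results of these data known, so its count beside that of all genes is a description and no test. Every one of the 13 had an estimate below the lower limit of the Psma8 interval, and 9 had their whole interval below it. Smc1b, a cohesin subunit of meiotic chromosomes, had 491 and 284 in the controls and 124 and 102 in the knockouts (-1.72, SE 0.27; limma adjusted p = 1.2e-04). Dmc1, the meiotic recombinase, had 169 and 83.8 against 48.8 and 40.4 (-1.40, SE 0.36; limma adjusted p = 0.0520), just short of the threshold. Only 1 marker passed when control replicate 1 was left out and 4 when control replicate 2 was, though all 13 estimates stayed negative in both. In footprints of bulk tissue, fewer cells of a type, less RNA per cell and fewer ribosomes per RNA cannot be told apart.

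With 1 library left out, the Psma8 estimate ran from -0.21 to 0.25. Without control replicate 2 it was -0.21 and without Eif5 cKO replicate 2 it was -0.17, beside marker medians of -1.78 and -1.56 in the same fits. Without control replicate 1 it was 0.25, beside a marker median of -1.37.

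**Figure D3:**
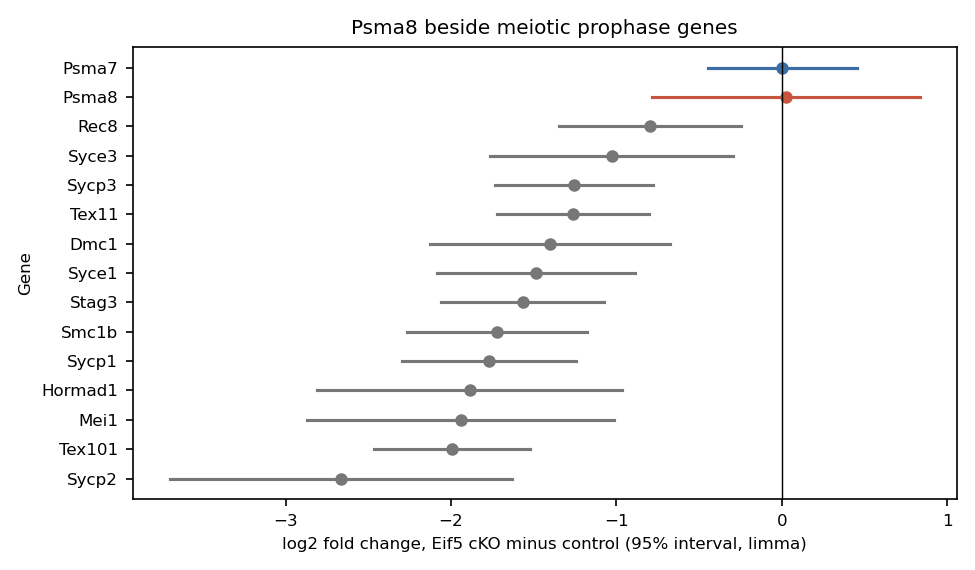
Log2 fold change of footprints (x axis, Eif5 cKO minus control, 2 samples each; limma estimate and 95% interval) for Psma8, Psma7 and 13 meiotic prophase markers (y axis). Psma8 and Psma7 sit at 0.02 and 0.003, and every marker estimate lies below -0.78, the lower limit of the Psma8 interval.

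The reads of Psma8 and Psma7 were also set against each other within each library, to compare libraries and not the levels of the genes. Psma8 made up 6.89% and 4.84% of the reads of Psma8 and Psma7 together in the controls, and 5.16% and 6.65% in the knockouts. The exact binomial 95% intervals of these shares, which cover counting error only, lay between 3.43% and 8.60% and overlapped between all 4 libraries. The log2 ratio of Psma8 to Psma7 averaged -4.00 ± 0.38 in the controls and -3.98 ± 0.27 in the knockouts (SD, n = 2 each), a difference of 0.02 (exact two-sided permutation p = 1). With 2 samples against 2 this test cannot go below 0.33. The 2 genes are paralogs, and how reads that fit both were counted is not given in the sources used here. The part of reads from Psma7 in the Psma8 values was not tested. The same holds for subunits with annotated pseudogenes, such as Psma5, Psmb5, Psmb6 and Psmb7.

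The immune catalytic forms were thinly covered, and none passed the test. Psmb10 (chromosome 8, 105935728 to 105938392) had 85.7 and 66.6 in the controls and 106 and 89.7 in the knockouts, from 58 to 105 reads. The groups did not overlap, with a log2 fold change of 0.36 (SE 0.32; limma adjusted p = 0.735). Psmb8 had 22.9 and 3.44 in the controls and 6.82 and 11.7 in the knockouts, from 28, 3, 6 and 13 reads. The knockout values lay between the controls. Psmb9 had 0.816 and 14.9 in the controls and 19.3 and 10.8 in the knockouts, from 1, 13, 17 and 12 reads. Its log2 fold change of 1.52 (SE 1.03; limma adjusted p = 0.637) rested on control replicate 1 and was -0.04 without it.

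**Figure D4:**
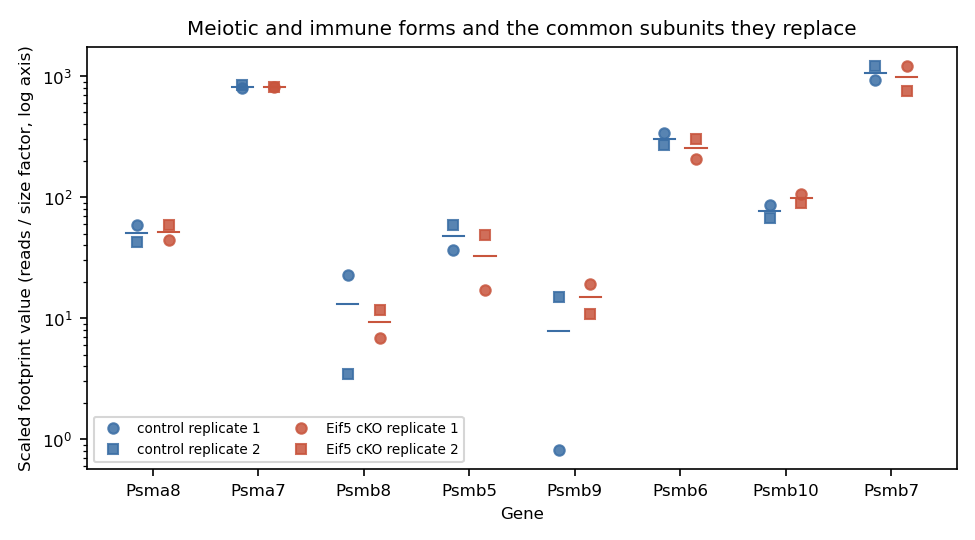
Footprint value (reads divided by the library's size factor, y axis, log axis) of the meiotic and immune subunits and of the common subunit each replaces (x axis), in 2 control and 2 Eif5 cKO libraries; points are libraries and short lines are group means. Psma8 and Psma7 overlap between groups, while the control values of Psmb8 (22.9 and 3.44) and Psmb9 (0.816 and 14.9) span far more than the knockout values.

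Each immune form was also set against its common counterpart within a library. The log2 ratio of Psmb10 to Psmb7 was -3.42 and -4.16 in the controls and -3.49 and -3.06 in the knockouts, overlapping between groups (exact two-sided permutation p = 0.667). For Psmb8 to Psmb5 it was -0.66 and -3.74 against -1.21 and -1.97 (exact p = 1). For Psmb9 to Psmb6 it was -7.53 and -4.09 against -3.35 and -4.69 (exact p = 0.667). The mean of the 3 ratios was -3.87 and -4.00 in the controls and -2.68 and -3.24 in the knockouts, higher in both knockout libraries by 0.97 on average. No test is given for this mean over chosen members, and with Psmb8 and Psmb9 at 1 to 28 reads it carries large counting error.

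Psmb9 and Psmb8 flank Tap1, the peptide transporter of class I antigen presentation, in a cluster on chromosome 17. Psmb9 (34182030 to 34187330) and Tap1 (34187556 to 34197225) are transcribed away from each other from start sites separated by 225 bases, and Psmb8 (34198195 to 34201454) follows. The whole stretch between the start sites is shown because it lies upstream of both genes, with the letters CCAAT and CCGCCC (a GC box read on the other strand) in capitals. It is RefSeq sequence of GRCm38.p6, plus strand, chr17:34187331-34187555.
Psmb9 to Tap1: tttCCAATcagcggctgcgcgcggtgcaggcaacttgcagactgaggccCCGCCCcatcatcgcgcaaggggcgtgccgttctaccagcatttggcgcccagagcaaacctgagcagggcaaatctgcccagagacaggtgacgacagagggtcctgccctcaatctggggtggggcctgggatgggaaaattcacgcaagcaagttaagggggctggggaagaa

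Promoters (250 bases before to 50 after the start) were listed for 40 members in 43 sequences, and matches were counted on both strands. TGANTCAGC, the core of the element bound by NFE2L1 and NFE2L2 with small MAF proteins, was found in 1, that of Psmb5, and in 1.19% of all 32851 promoters. CCAAT and GGGCGG, chosen after the values were seen, were found in 32.6% and 55.8% of the 43 and in 37.4% and 35.7% of all promoters. A match is a description of letters and not of binding.

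Other genes of class I antigen presentation had a median log2 fold change of 0.46 over 8 tested members, with 0 called by limma and 2 at an unadjusted p under 0.05. Over all genes tested, limma called 0.604% lower and 0.0744% higher, and 10.6% had an unadjusted p under 0.05. Tap1 had 36.7 and 42.5 in the controls and 103 and 79.0 in the knockouts (1.17, SE 0.37; limma adjusted p = 0.157). B2m, the light chain of class I molecules, had 805 and 806 against 1217 and 1101 (0.52, SE 0.22; limma adjusted p = 0.366). The groups did not overlap for either gene, yet neither passed, and H2-K1 and H2-D1, class I heavy chains whose close paralogs may share their reads, had negative estimates of -0.27 and -0.17. Of the macrophage markers all 10 were in the table, with a summed share of 0.0471% and 0.0534% in the controls and 0.0630% and 0.0689% in the knockouts. Among the 9 macrophage markers tested, 8 had a positive sign and 1 a negative one, with 0 called by limma. Both knockout values lay above both controls for 5 of the 9, where 20% of all genes did so. The 5 lymphocyte and dendritic cell markers in the table took 0.00239% and 0.00292% in the controls and 0.00239% and 0.00216% in the knockouts. Of the 3 tested, 2 had a positive sign and 1, Cd3e, a negative one. Cd3e had 18.8 and 20.7 in the controls and 12.5 and 0.897 in the knockouts, from 23, 18, 11 and 1 reads. Among these markers, Cd79a was at 0 in Eif5 cKO replicate 1 and Flt3 at 0 in control replicate 2. The part of these cells in the immune subunit values was not tested.

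Among the activators, none passed the test. Psme1 and Psme2, which together form an interferon-inducible cap and lie close together on chromosome 14, had different signs. Psme1 had 484 and 442 in the controls and 468 and 543 in the knockouts (0.12, SE 0.23), and Psme2 had 80.0 and 86.1 against 45.4 and 84.3 (-0.42, SE 0.36). The groups overlapped for both, and the low Psme2 value was that of Eif5 cKO replicate 1, without which its estimate was 0.02. Psme3, the nuclear activator that acts without ubiquitin, had 415 and 465 against 310 and 349. Its groups did not overlap (-0.42, SE 0.23; limma adjusted p = 0.545). Psme4, which in germ cells is known for the turnover of acetylated histones, had 202 and 264 in the controls and 243 and 181 in the knockouts (-0.14, SE 0.26), with overlap. Psmf1, an inhibitor of the core, had 89.8 and 97.6 against 101 and 81.6 (-0.04, SE 0.31), also with overlap.

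The assembly chaperones held the member with the smallest p of all 47. Psmg2, which with Psmg1 starts the alpha ring, had 216 and 224 in the controls and 112 and 173 in the knockouts. Both knockout values were below both controls, with a log2 fold change of -0.65 (SE 0.27, 95% interval -1.20 to -0.11), an unadjusted p of 0.0200 and an adjusted p of 0.341 by limma. Its partner Psmg1 had 345 and 287 against 336 and 253 (-0.11, SE 0.24), with overlap. At the upper end of the class, Psmg3, which joins Psmg4 in alpha ring assembly, had 35.1 and 28.7 against 48.8 and 34.1 (0.35, SE 0.46), and its groups overlapped. The base chaperones Psmd5, Psmd9 and Psmd10 had estimates of -0.29 (SE 0.24), 0.29 (SE 0.31) and -0.05 (SE 0.25). The knockout values lay below both controls for Psmd5 and above both for Psmd9, and the groups of Psmd10 overlapped.

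No gene of the other pathway lists passed the test. Over all genes tested, limma called 0.604% lower and 0.0744% higher, so 0 calls in such short lists is near the background. An unadjusted limma p under 0.05 was found for 10.6% of all genes. Of 21 cofactors of the proteasome in the table (receptors, deubiquitinating enzymes, shuttles, the transcription factor Nfe2l1 and others), limma called 0, with 1 at an unadjusted p under 0.05 and a median log2 fold change of 0.08. That 1 was Shfm1, the small lid subunit outside the naming pattern, with 808 and 862 in the controls and 1464 and 1009 in the knockouts (0.54, SE 0.23; limma adjusted p = 0.365). Zfand5, a ubiquitin-binding protein that stimulates the proteasome, had the next smallest p, with 308 and 323 against 362 and 443 (0.35, SE 0.23). Both knockout values of Shfm1 and of Zfand5 exceeded both controls. Nfe2l1, which drives transcription of subunit genes when the proteasome is inhibited, had 1274 and 1310 in the controls and 1677 and 1205 in the knockouts, with overlap. Of 6 genes for ubiquitin and its activating enzymes limma called 0, with 1 at an unadjusted p under 0.05. In the cofactor, ubiquitin and class I presentation lists the count of calls was likewise 0 with edgeR, with DESeq2 and with limma-voom, and each of these tools put 1, 1 and 2 genes at an unadjusted p under 0.05. Uba6, the alternative ubiquitin-activating enzyme, had 641 and 548 against 341 and 420 (-0.65, SE 0.23; limma adjusted p = 0.242). Rps27a, a fusion of ubiquitin and a ribosomal protein, had 9.79 and 17.2 against 4.54 and 7.18 (-1.06, SE 0.93).

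Replicates of a group differed for many subunits by more than counting error. Between the knockout libraries, 26 of 47 members differed beyond a 95% exact counting interval, against 41.0% of all genes tested. Between the controls 21 of 47 did, against 35.2% of all genes. The median absolute log2 difference of the 31 common subunits was 0.32 between the knockout libraries and 0.19 between the controls. For all genes tested it was larger, at 0.37 between the knockout libraries and 0.32 between the controls. The share beyond counting error also depends on how many reads a gene has. Psmb5 (2.84-fold), Psma6 (1.98-fold), Psme2 (1.86-fold) and Psmb2 (1.69-fold) were higher in Eif5 cKO replicate 2 than in replicate 1, whereas Psmb7 (0.628-fold), Psmg4 (0.617-fold) and Psma5 (0.522-fold) were lower. These spreads were larger than the differences between the group means of these genes.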

How the data were processed

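Ribosome footprints from 4 testis libraries (2 control, 2 Eif5 cKO) were analysed. Per the submitters' processing notes, which give no versions, Bowtie2, STAR, featureCounts and GRCm38 were used; the settings for strand and multi-mapping are not stated. The deposited columns are named raw counts, but their values are a signal, reads divided by a size factor, since 100% were whole multiples of 1 read (relative tolerance 1e-06). Genes that passed filterByExpr of edgeR 4.0.16 (default minimum count of 10 reads) were fitted with limma 3.58.1 (R 4.3.3, intensity trend) on log2(value + 1), group only; fold changes on this scale understate those of low genes. Tests were two-sided with Benjamini-Hochberg adjustment. DESeq2 1.42.0, edgeR, limma-voom, other scalings, filters and pseudocounts, each library left out, and a replicate block were alternatives. Fits were tested on simulated reads. Named by rule were the special forms, activators, inhibitor, class extremes and the pathway genes with the smallest p; further genes were chosen after their values were seen. Members and lists were chosen with earlier results of these data known. Positions and promoters came from RefSeq tables of GRCm38.p6. There were 0 columns of other samples. One marker gene and one promoter motif of the lists are not reported here.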

Additional observations from a re-analysis of the deposited data

How the results depend on the processing

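The count of 0 proteasome members called held under every alternative run, including each library left out; the smallest adjusted p of any member was 0.0523, without Eif5 cKO replicate 2. All genes called were 82, and 48 with scaling on the Sertoli list, which moved the median of all genes to -0.45; they were 10 to 346 with a library left out. With the replicate number as a block, 100 genes and 0 members were called; same-numbered samples did not deviate together (correlation -0.047), so the numbers were not taken as pairs. The median of the common subunits was -0.17, and -0.21 with library totals and -0.63 on the Sertoli list; leaving out a library gave -0.17 to -0.12. Relative to the median of all genes it lay between -0.19 and -0.10. The Psma8 estimate was -0.020 with library totals and -0.43 on the Sertoli list. Scaling on the Sertoli list used its summed reads, most of which were of Clu, whose groups overlapped. On the Sertoli list the signs of Psma7 (-0.46), Psmb10 (-0.095), Psmc4 (-0.42), Psmd4 (-0.42), Psmd7 (-0.067), Psme1 (-0.34), Psmg3 (-0.10) and Zfand5 (-0.11) turned, and with library totals those of Psma7 (-0.042), Psmc4 (-0.0019) and Psmd4 (-0.0080). Psma7 was also below 0 by edgeR (-0.0042), limma-voom (-0.0038) and TMM factors (-0.0041). With a library left out, estimates turned sign for Psma8 (-0.21 to 0.25), its log2 ratio to Psma7 (-0.25 to 0.29), Psma7 (-0.034 to 0.040), Psma2 (-0.42 to 0.024), Psmb5 (-1.39 to 0.061), Psmb6 (-0.54 to 0.0075), Psmb7 (-0.49 to 0.18), Psmb8 (-1.26 to 1.16), Psmb9 (-0.042 to 3.09), Psmc4 (-0.17 to 0.25), Psme2 (-0.85 to 0.023), Psme4 (-0.35 to 0.075) and Psmf1 (-0.19 to 0.11). The difference in the mean immune to common ratio was then 0.70 to 1.25. Of the 13 meiotic markers, 7 to 11 were called with all libraries, and 1, 4, 9 and 10 in the fits that left out control 1, control 2, knockout 1 or knockout 2. Psmb9, Psmb8, Psmg3 and Psmb5 had the fewest reads of the tested members.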
